A study of Mus musculus with 2 samples.

Results

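The proteasome genes of regenerating mouse muscle are described here, as measured on 2 expression arrays. They were chosen by name: a gene entered when a probe set of the array carried its symbol alone and that symbol began with Psma, Psmb, Psmc, Psmd or Psme and a digit. This gave 45 of the 19938 genes with a probe set of their own, on 51 probe sets. Of the 45, 43 encode subunits, assembly chaperones or activators of the proteasome. The other two, Psmc3ip and Psme3ip1, encode proteins that are named for binding one, and they are given apart. The labelled knockout pool was RNA of Mef2a -/- (Mef2a KO) mice and the wild type pool RNA of Mef2a +/+ mice, all of the mixed strain 129Sv/C57BL6, of both sexes and between 2 and 4 months old. Every mouse had received 50 µl of 10 µM cardiotoxin, a toxin of snake venom that kills fibres but spares the satellite cells that rebuild them, in the right tibialis anterior, and that muscle was taken 7 days later. RNA of 5 mice was pooled per genotype and put on 1 array, so nothing below has a replicate error, and no test can be made. Neither the deleted stretch of Mef2a nor the cells that lack it are named in the labels.

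Values are log2 expression values (RMA), and a difference is the value of the labelled knockout pool minus that of the wild type pool. Genes with at least 1 value at or above 4.40, the median over both arrays, count as measurable here, and there were 11787 of them. Mef2a itself read 9.06 in the labelled knockout pool and 8.92 in the wild type pool on its 1 probe set. That probe set may lie outside the deleted part, so it does not check the labels, and every direction below rests on them. Muscle fibre markers were measurable in 15 of 15 cases, up to 12.52 in the labelled knockout pool and 12.56 in the wild type pool. Lymphocyte markers reached the floor in 0 of 13 cases and neutrophil markers in 1 of 10 (Csf3r). Macrophage and monocyte markers were higher in the labelled knockout pool in 15 of 15 cases (14 with a trend on mean expression removed by loess), with a median difference of 0.97. Of all measurable genes 53.3% were higher, and the median difference over them was 0.026. The summed linear level of the macrophage and monocyte markers was 10277 in the labelled knockout pool and 4705 in the wild type pool. In such bulk RNA, fewer cells of a type and less RNA per cell cannot be told apart.

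The proteasome is the barrel-shaped protease that degrades proteins tagged with ubiquitin. Its 20S core is built of outer alpha rings, which gate the entrance, and inner beta rings, which hold the cutting sites. A 19S regulatory particle sits on the core, with a base of ATPases that unfold the substrate and a lid that removes the ubiquitin. In skeletal muscle this machine breaks down much of the contractile protein during atrophy, when ubiquitin ligases such as atrogin-1 and MuRF1 mark the substrates. In immune cells and after interferon gamma, the catalytic beta subunits are exchanged for inducible ones, giving the immunoproteasome, which cuts peptides suited to display on MHC class I molecules.

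The proteasome genes read almost alike in both pools. Of the 45 genes, 42 were measurable, and their differences ran from -0.26 (Psmd4) to 0.46 (Psmb8) with a median of -0.0096. Among these 42, 20 were higher, 21 lower and 1 identical in the labelled knockout pool, where 53.3% of all measurable genes were higher and 44.5% lower. A first limit was set at 0.32 on the log2 scale, which is 25% higher or 20% lower. Psmb8 and Psmd5 were higher by at least that much and no member was lower by as much, against 16.7% and 10.3% of all measurable genes. No member reached 1.5-fold, which 6.45% of measurable genes did upwards and 1.90% downwards. The median size of the difference, sign left aside, was 0.086 for the proteasome genes and 0.19 for all measurable genes. At a higher floor of 6.18, the 75th percentile of all values, 2 of 41 members lay past 0.32 in either direction, against 27.8% of genes. The split of higher against lower members depended on the scaling. With the trend of the difference on mean expression removed by loess, 13 were higher and 29 lower, and with the median difference of all measurable genes (0.026) subtracted, 17 and 25.

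**Figure D1:**
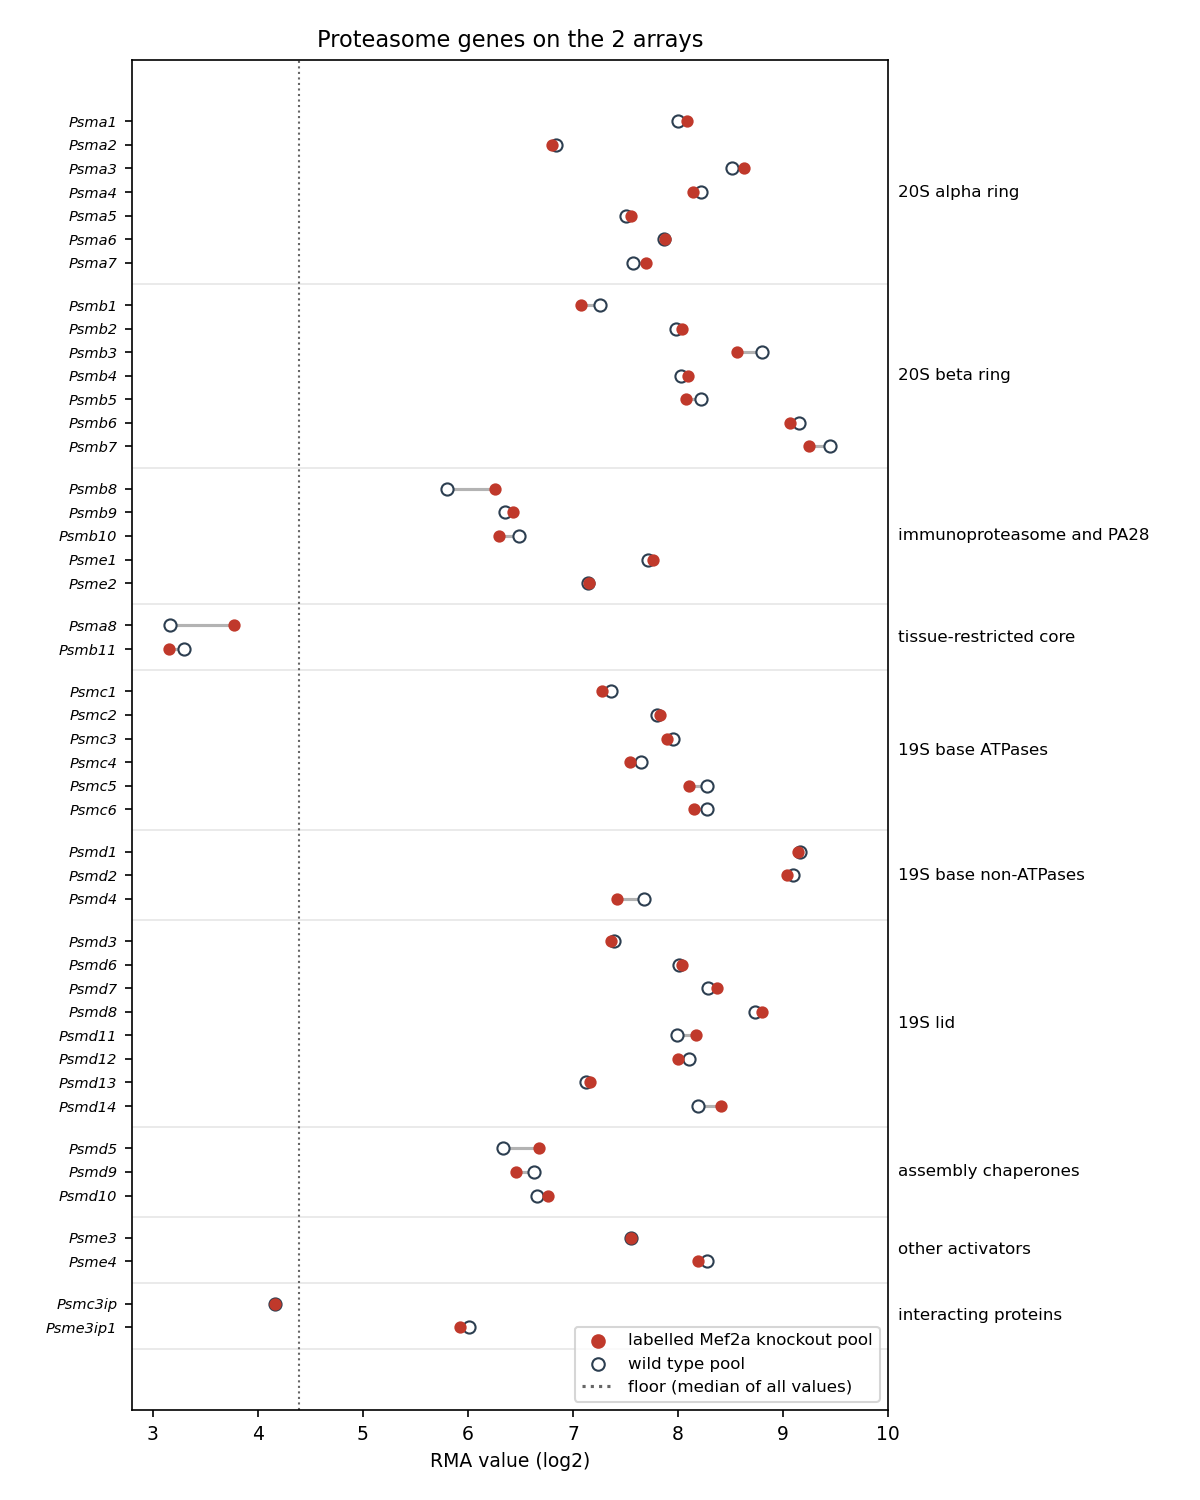
Log2 RMA values of the 45 proteasome genes (rows, by subunit group) in the labelled Mef2a knockout pool (filled red) and in the wild type pool (open), 1 array each, with the floor of 4.40 dotted. The points of a row mostly touch or overlap. Psmb8 and Psmd5 are the widest gaps among measurable genes, and Psma8, Psmb11 and Psmc3ip lie left of the floor.

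The 7 subunits of the alpha ring were all measurable and differed by -0.079 to 0.12. Of these, 5 were higher and 2 lower, with a median of 0.042 (-0.017, with 3 higher and 4 lower, under the loess correction). Among all measurable genes 53.3% were higher. Psma7 read 7.70 in the labelled knockout pool and 7.58 in the wild type pool. Psma3 read 8.63 in the labelled knockout pool and 8.51 in the wild type pool, and its other probe sets gave differences of 0.10 and 0.12, so that all 3 pointed the same way. With Psma1 (0.086), these were the largest upward differences of the ring, and each was under 1.1-fold. Psma5 (0.042) had a further probe set at -0.041, so its direction depended on the probe set. Which of the Psma3 and Psma5 probe sets lie at the gene itself is not known here. Psma6 differed by 0.0037, Psma2 by -0.04 and Psma4, the lowest of the ring, by -0.079, with 8.14 in the labelled knockout pool and 8.22 in the wild type pool. Psma8, an alpha subunit of the testis proteasome, was below the floor in both pools (3.77 in the labelled knockout pool and 3.16 in the wild type pool), so its difference of 0.61 rests on values below the floor.

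The constitutive beta ring lay lower by small amounts, where 44.5% of all measurable genes were lower. Of its 7 subunits 5 were lower and 2 higher, with a median of -0.15 (-0.20 under the loess correction) and a range of -0.24 to 0.066 that overlaps that of the alpha ring. All 3 subunits that carry a cutting site were lower. Psmb7, the trypsin-like subunit, read 9.25 in the labelled knockout pool and 9.45 in the wild type pool. Psmb5, the chymotrypsin-like subunit and main target of the drug bortezomib, read 8.07 in the labelled knockout pool and 8.22 in the wild type pool. Psmb6, the caspase-like subunit, read 9.07 in the labelled knockout pool and 9.15 in the wild type pool. Their differences were -0.20, -0.15 and -0.082, each under 1.2-fold. Among the subunits without a cutting site, Psmb3 was lowest, with 8.56 in the labelled knockout pool and 8.80 in the wild type pool. Its other probe set read 8.03 and 8.36 in the same pools, a difference of -0.33 that lies past the limit of 0.32. Psmb1 was lower by 0.18, while Psmb4 (0.066) and Psmb2 (0.056) were slightly higher. Psmb11, the beta subunit of the thymus, was below the floor in both pools (3.16 in the labelled knockout pool and 3.30 in the wild type pool). Over the 14 measurable subunits of both rings, 7 were higher and 7 lower, and the median was -0.018.

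**Figure D2:**
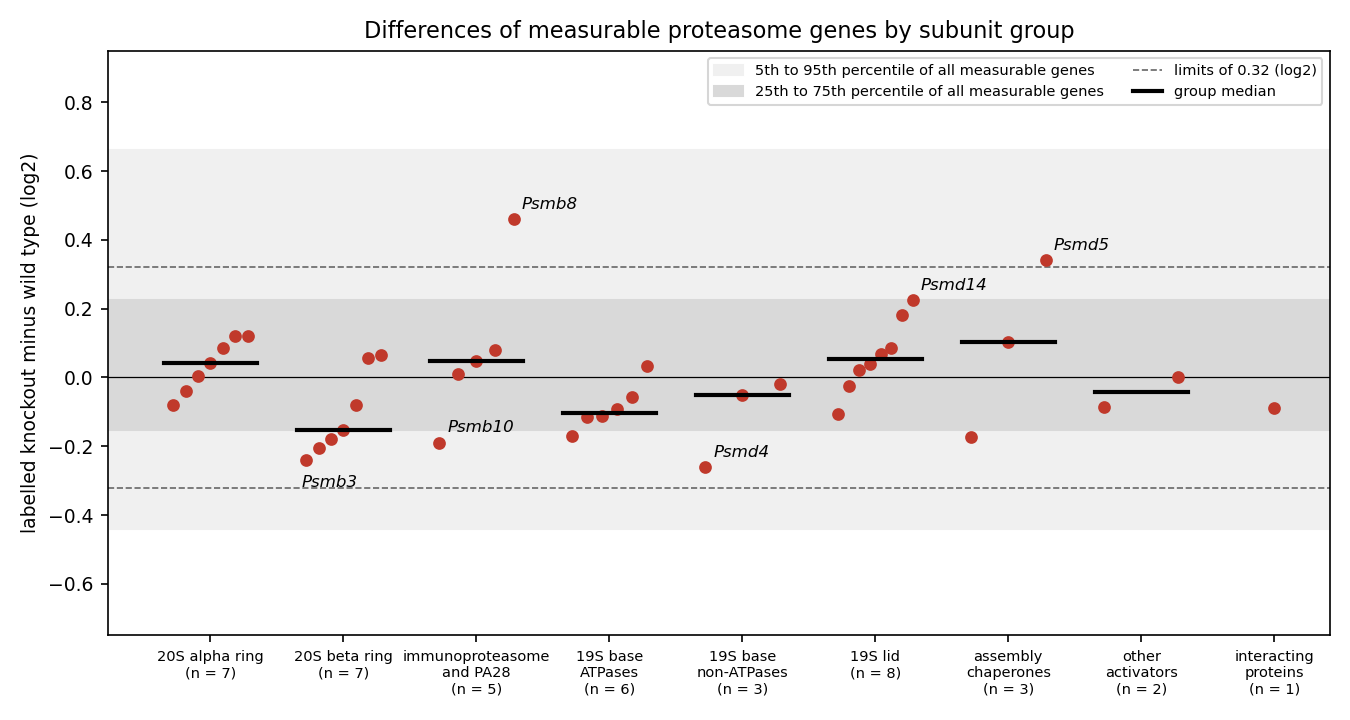
Difference of each measurable proteasome gene (points; vertical axis, log2 value of the labelled knockout minus the wild type pool) by subunit group, with group medians as bars. Grey bands hold the middle 50% and the 5th to 95th percentile of all measurable genes. All 42 points lie within the wider band, and Psmb8 and Psmd5 alone lie outside the dashed limits of 0.32 on either side of 0.

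The immunoproteasome genes did not differ as a block. Psmb8, the inducible chymotrypsin-like subunit also called LMP7, read 6.26 in the labelled knockout pool and 5.80 in the wild type pool, 1.38-fold higher. Its difference of 0.46 was the largest of all measurable proteasome genes, and 9.89% of measurable genes had a larger one. Psmb9, the inducible caspase-like subunit, read 6.43 in the labelled knockout pool and 6.35 in the wild type pool, a difference of 0.079. Psmb10, the inducible trypsin-like subunit, went the other way, with 6.29 in the labelled knockout pool and 6.48 in the wild type pool (1.14-fold lower). Psme1 and Psme2 encode the PA28 activator, a cap that opens the core without ATP. Psme1 read 7.76 in the labelled knockout pool and 7.71 in the wild type pool. Psme2 read 7.16 in the labelled knockout pool and 7.15 in the wild type pool. A probe set shared by Psme2 and its retrocopy Psme2b, left out by the rule, differed by -0.051. The median of the 5 genes was 0.049, or -0.0055 with 2 higher and 3 lower under the loess correction, against 0.026 for all measurable genes. The macrophage marker list, higher in 15 of 15 cases, was measured in the same RNA, and its part in the Psmb8 value was not tested. The lymphocyte markers, whose cells also use the immunoproteasome, were below the floor in all 13 measured cases, with a highest value of 4.20 in the labelled knockout pool and 4.29 in the wild type pool.

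Each inducible subunit takes the place of a constitutive one, so the pairs can be set side by side. At the chymotrypsin-like site the difference of Psmb8 exceeded that of Psmb5 by 0.61, a ratio of 1.53 between their folds. At the caspase-like site Psmb9 exceeded Psmb6 by 0.16. At the trypsin-like site Psmb10 and Psmb7 were lower by nearly the same amount, and their differences lay 0.015 apart. The gap was widest at the chymotrypsin-like site, the site of Psmb8, which had the largest difference of all measurable proteasome genes. These values do not show which form the proteasomes held, and no background was taken for such pair differences. In this bulk RNA the genes of a pair may be read in different cells. Macrophage markers had a median difference of 0.97 and muscle fibre markers of -0.18, and their part was not tested.

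**Figure D3:**
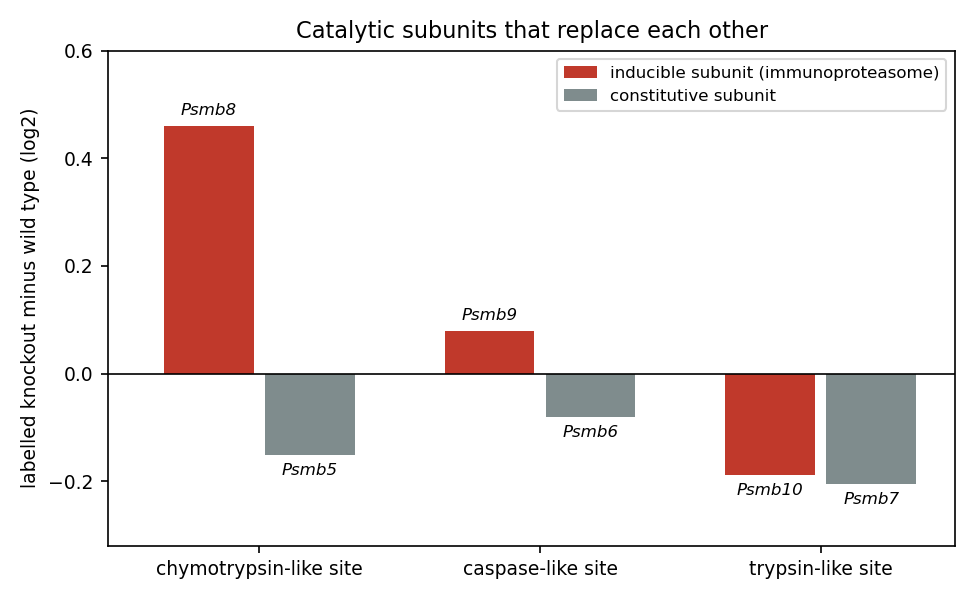
Differences (bars, log2 value of the labelled knockout minus the wild type pool, 1 array each) of the inducible subunit (red) and the constitutive subunit (grey) at the 3 cutting sites. Psmb8 stands at 0.46 and its counterpart Psmb5 at -0.15, while Psmb10 and Psmb7 are both near -0.2.

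The promoters of Psmb8, Psmb9 and Psme1 are shown because interferon gamma is known to induce immunoproteasome genes together, whereas here they read apart. That of Psmb5 is added as the constitutive counterpart of Psmb8. Each window is 300 bases from RefSeq (GRCm38.p6), from 250 bases before the annotated start, written 5′ to 3′ on the gene's strand. Capitals mark every match, on either strand, to GAAA followed after any 2 bases by GAAA (the interferon-stimulated response element, bound by IRF factors), TGACNNNGC (the core of the antioxidant response element, bound by NFE2L1 and NFE2L2), CCAAT (bound by NF-Y) and the MEF2 site.
Psmb8, chr17:34197945-34198244, plus strand: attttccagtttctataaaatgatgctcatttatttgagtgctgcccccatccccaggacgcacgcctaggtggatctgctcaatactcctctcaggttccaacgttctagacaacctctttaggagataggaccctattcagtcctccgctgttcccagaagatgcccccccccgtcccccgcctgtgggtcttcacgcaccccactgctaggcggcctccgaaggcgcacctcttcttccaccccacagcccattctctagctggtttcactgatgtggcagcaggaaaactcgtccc
Psmb9, chr17:34187281-34187580, minus strand: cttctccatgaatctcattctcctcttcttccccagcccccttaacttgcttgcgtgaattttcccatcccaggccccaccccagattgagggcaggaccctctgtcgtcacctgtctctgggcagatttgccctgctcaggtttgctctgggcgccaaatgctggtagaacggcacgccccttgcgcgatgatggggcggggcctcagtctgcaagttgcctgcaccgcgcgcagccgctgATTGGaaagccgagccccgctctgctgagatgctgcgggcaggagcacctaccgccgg
Psme1, chr14:55578244-55578543, plus strand: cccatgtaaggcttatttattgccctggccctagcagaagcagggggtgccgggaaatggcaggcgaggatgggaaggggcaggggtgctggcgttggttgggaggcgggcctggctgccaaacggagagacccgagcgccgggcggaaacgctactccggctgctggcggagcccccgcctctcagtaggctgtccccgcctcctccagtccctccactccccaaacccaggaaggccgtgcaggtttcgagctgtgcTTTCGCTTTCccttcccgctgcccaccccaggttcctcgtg
Psmb5, chr14:54617946-54618245, minus strand: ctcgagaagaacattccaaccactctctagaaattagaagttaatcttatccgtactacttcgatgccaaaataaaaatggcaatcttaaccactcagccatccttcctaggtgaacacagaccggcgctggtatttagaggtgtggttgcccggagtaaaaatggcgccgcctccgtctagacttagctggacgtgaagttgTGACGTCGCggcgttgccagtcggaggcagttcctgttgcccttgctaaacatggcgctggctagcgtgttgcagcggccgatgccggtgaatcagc
Psmb9 has an inverted CCAAT box that begins 8 bases before the start, and Psme1 an interferon-stimulated response element that begins 9 bases after it. An antioxidant response element core begins 47 bases before the start of Psmb5. No motifs overlapped in these 4 windows, and the windows of Psmb8 and Psmb10 held no match. The Psmb9 window shares 275 bases with that of Tap1, which is read from the opposite strand and encodes a transporter of the cut peptides. Tap1, chosen for this position, read 6.14 in the labelled knockout pool and 5.96 in the wild type pool.

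Across the 38 proteasome genes with a window in the table, 4 held the interferon-stimulated response element (Psmb3, Psmd4, Psmd9 and Psme1), which 3.99% of all genes with a window held. The antioxidant response element core was found in 6 (Psmb5, Psmb6, Psmc6, Psmd12, Psmd9 and Psme4), against 14.0% of all genes. CCAAT was present in 16 of the 38, against 41.1% of all genes, and the MEF2 site in 0, against 3.70%. Of the 4 genes with the interferon-stimulated response element, Psmd4, Psmb3 and Psmd9 were lower, by 0.26, 0.24 and 0.17, and Psme1 differed by 0.049. The 6 genes with the antioxidant response element core, Psmd9 among them, were all lower too, with differences from -0.17 (Psmd9) to -0.082 (Psmb6). Of all measurable genes 44.5% were lower, and a link between motif and direction was not tested. A match is no proof of binding, and a missing match says only that these letters are not in this window.

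As deposited, the base and the lid of the regulatory particle leaned opposite ways, within narrow limits. Among all measurable genes 53.3% were higher and 44.5% lower. In the base 8 of 9 genes were lower, with a median of -0.092 (9 of 9 and -0.16 under the loess correction), and in the lid 6 of 8 were higher, with a median of 0.054 (4 of 8 and 0.001 under that correction). Their ranges, -0.26 to 0.034 for the base and -0.11 to 0.22 for the lid, overlap, and none of the 17 genes reached the limit of 0.32. Over the whole particle 7 were higher and 10 lower, with a median of -0.026.

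Among the ATPases of the base, which form the ring that threads substrates into the core, Psmc5 was lowest, with 8.10 in the labelled knockout pool and 8.27 in the wild type pool. Psmc6 (-0.12), Psmc4 (-0.11), Psmc1 (-0.092) and Psmc3 (-0.056) were also lower, and Psmc2 (0.034) was the one ATPase gene higher as deposited. The second probe set of Psmc1 differed by -0.06. Psmd4 encodes a ubiquitin receptor of the base. It read 7.41 in the labelled knockout pool and 7.68 in the wild type pool, 1.20-fold lower, the most negative difference among measurable proteasome genes. Of measurable genes 14.2% were lower still. The large scaffold subunits Psmd1 and Psmd2 hardly differed. Psmd1 read 9.14 in the labelled knockout pool and 9.16 in the wild type pool, and Psmd2 read 9.04 and 9.09 in the same pools, with a further Psmd2 probe set at -0.0055.

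In the lid, Psmd14, the metalloprotease that cuts ubiquitin chains off the substrate, was highest, with 8.41 in the labelled knockout pool and 8.19 in the wild type pool (1.17-fold). Psmd11, which helps to clamp the regulatory particle to the core, read 8.17 in the labelled knockout pool and 7.99 in the wild type pool. Psmd7, the partner of Psmd14 in the same enzyme pair, differed by 0.087. The other lid scaffold subunits lay between -0.11 and 0.069, namely Psmd8 (0.069), Psmd13 (0.038), Psmd6 (0.023), Psmd3 (-0.026) and Psmd12 (-0.11).

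The chaperones of the base, which leave before the particle is finished, went both ways. Psmd5 read 6.67 in the labelled knockout pool and 6.33 in the wild type pool, 1.27-fold higher, and its difference was under the limit of 0.32 once the values were median-centred (0.31) or corrected by loess (0.27). Psmd10, known as gankyrin, read 6.76 in the labelled knockout pool and 6.66 in the wild type pool. Psmd9 read 6.45 in the labelled knockout pool and 6.63 in the wild type pool. The 3 chaperones thus ran from -0.17 to 0.34.

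Of the other activators, Psme3, a nuclear cap of the core, had the same value of 7.56 on both arrays, as 254 of the measurable genes (2.15%) did. Psme4, the activator PA200, read 8.19 in the labelled knockout pool and 8.27 in the wild type pool. Psmc3ip, a meiotic recombination factor, was below the floor at 4.16 in both pools. Psme3ip1 read 5.92 in the labelled knockout pool and 6.01 in the wild type pool.

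Proteasome parts and assembly factors outside the naming rule differed by -0.19 to 0.14. All 8 measured ones were measurable, with 5 higher, 2 lower and a median of 0.044, where 53.3% of all measurable genes were higher and 44.5% lower. The split was 4 each when median-centred, and 6 higher and 2 lower under the loess correction, with a median of 0.064. Ecpas, which binds the proteasome, read 7.90 in the labelled knockout pool and 8.09 in the wild type pool. Sem1, a small lid subunit, and Pomp, which matures the core, were each higher by 0.14. Among 8 enzymes and shuttle factors that dock on the proteasome, 1 was higher by at least 0.32 and 0 were lower by as much, against 16.7% and 10.3% of measurable genes. The 1 was Rad23b, which carries ubiquitinated proteins to the proteasome, with 7.72 in the labelled knockout pool and 7.37 in the wild type pool. The segregase p97 (Vcp, 0.052) and its cofactors differed little, with Faf2 (0.21), Nploc4 (-0.10) and Ngly1 (0.081) furthest from 0. Uba6, the 1 measured gene of the list of ubiquitin and E1 genes, differed by 0.28.

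Of 8 listed regulators, namely transcription factors of proteasome genes and Zfand5, which encodes a protein that binds and activates the proteasome, 4 were higher, 2 lower and 2 identical in the pools (4 lower when median-centred). Nfe2l1, which raises proteasome genes when the proteasome is inhibited, read 8.64 in the labelled knockout pool and 8.70 in the wild type pool. Nfe2l2, the oxidative stress factor, read 8.07 in the labelled knockout pool and 7.65 in the wild type pool (1.34-fold higher). It was the only one of the 8 higher by at least 0.32, against 16.7% of measurable genes, and 0 were lower by as much, against 10.3%. Stat3 (0.24) and Nfya (0.22) were higher by less, Zfand5 differed by 0.037, Nfyc by -0.14, and Foxm1 and Nfyb had the same value on both arrays. Factor transcript levels do not show factor activity.

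Upstream of the proteasome, the muscle ubiquitin ligases ran from -0.81 to 0.18. Of 14 measured, 5 were lower by at least 0.32, including 3 by at least 1.5-fold, and 0 were higher by 0.32, against 10.3%, 1.90% and 16.7% of measurable genes. Asb2, an adaptor of a cullin ligase, read 8.18 in the labelled knockout pool and 8.99 in the wild type pool. Fbxo32, which encodes atrogin-1, read 7.42 in the labelled knockout pool and 8.16 in the wild type pool, and Fbxo40 read 7.82 and 8.43 in the same pools. Trim63, which encodes MuRF1 and was picked after its value was seen, differed by -0.55. The muscle fibre markers were lower in 15 of 15 cases (14 under the loess correction) with a median of -0.18 in the same RNA. Of all measurable genes 44.5% were lower. The summed linear level of these fibre markers was 39642 in the labelled knockout pool and 44226 in the wild type pool. A list of 10 young muscle fibre markers went both ways, with 6 lower and 4 higher. It ran from -0.63 to 0.24, with a median of -0.072. The part of either marker list in the ligase values was not tested.

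Most genes of the MHC class I list were higher, and most genes of the interferon list lower. In the class I list 10 of 11 measured genes were higher, 5 by at least 0.32 and 3 by at least 1.5-fold, with a median of 0.26. Among all measurable genes 53.3% were higher, 16.7% by at least 0.32 and 6.45% by at least 1.5-fold. Calr and Pdia3, chaperones that also fold proteins other than class I, differed by 0.70 and 0.67, and Canx, another such chaperone, by 0.40. Nlrc5 (-0.31) was the 1 lower gene, read on the highest-mean of its 19 probe sets. H2-K1, H2-D1 and H2-T23 of the list had no probe set of their own. B2m, the class I light chain, read 10.39 in the labelled knockout pool and 9.73 in the wild type pool. The interferon list holds genes of interferon gamma signalling beside interferon-stimulated genes. In it 13 of 18 measurable genes were lower, 6 by at least 0.32 and 3 by at least 1.5-fold, with a median of -0.14. Among all measurable genes 44.5% were lower, 10.3% by at least 0.32 and 1.90% by at least 1.5-fold. Rsad2 differed by -0.88 and Iigp1 by -0.70. The 5 higher genes were the interferon gamma receptor genes Ifngr1 (0.65) and Ifngr2 (0.24), the kinase genes Jak2 (0.23) and Jak1 (0.18), and Ciita (0.065). Ifng itself was below the floor at 3.19 in the labelled knockout pool and 3.33 in the wild type pool, and Irf1, a factor that induces Psmb9, differed by -0.014. Of the immunoproteasome genes, Psmb8 (0.46), Psmb9 (0.079), Psme1 (0.049) and Psme2 (0.011) were higher as deposited, and Psmb10 (-0.19) was lower. Whether any of them follows either list was not tested. The macrophage median in the same RNA was 0.97, and its part in either list was not tested.

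Other routes of protein breakdown also went both ways. In the autophagy and lysosome list 7 of 14 were higher and 7 lower, with Ctsl, the lysosomal protease cathepsin L, 2.62-fold higher (10.70 in the labelled knockout pool and 9.31 in the wild type pool), and Atg7 (0.57) and Lamp1 (0.48) next. The macrophage markers, higher in 15 of 15 cases with a median of 0.97, were measured in the same RNA, and their part in the lysosomal values was not tested. In the list of calpains and cytosolic peptidases, whose members trim proteins and proteasome products, 6 of 9 were higher (5 under the loess correction). That too is set against 53.3% of all measurable genes. Cast, the calpain inhibitor, differed by 0.33 and Capns1 by -0.23. Capn1 differed by -0.319, just short of the limit, which is 0.322 before it is rounded to 0.32.

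**Figure D4:**
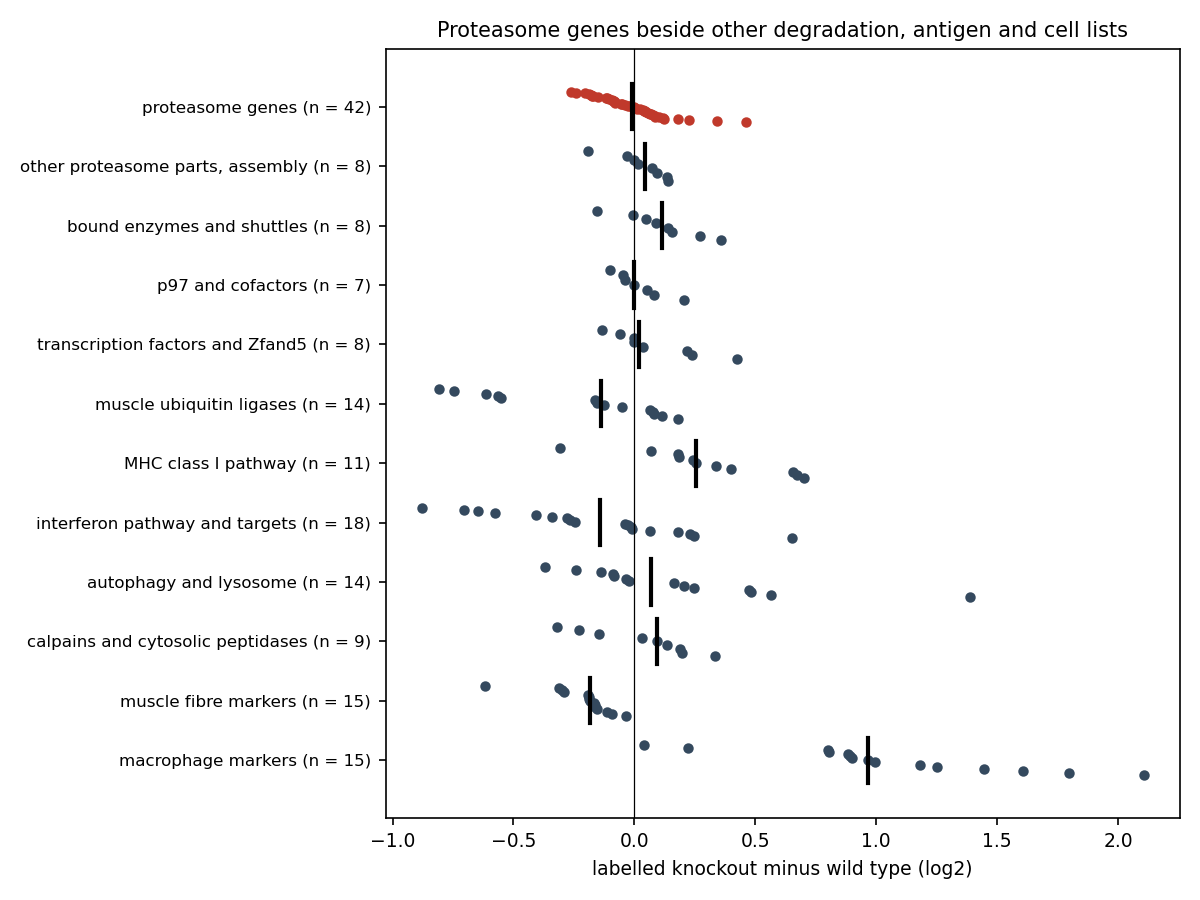
Differences of measurable genes (points, horizontal axis, log2 value of the labelled knockout minus the wild type pool) in each list (rows), with list medians as bars. Proteasome genes (red, 42) stay between -0.26 and 0.46, muscle ubiquitin ligases reach -0.81, and macrophage markers have a median of 0.97.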

How the data were processed

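Expression was measured on 2 arrays, 1 per genotype, each with RNA pooled from 5 mice. The authors deposited 1 log2 expression value per probe set and array, and the submitters' processing notes name RMA and Affymetrix Expression Console. RMA corrects background, equalises the distributions of the arrays and summarises probes, so a change shared by most genes cannot be seen. Neither versions nor settings are stated there. Values were used as deposited. No depth exists for arrays, and their number limits the precision.

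Gene symbols came from the platform annotation (21789 probe sets with 1 symbol, 1621 with several, 12147 with none). For genes with more than 1 probe set the one of highest mean was used. The probe sets of Psma3, Psma5, Psmb3, Psmc1 and Psmd2 could not be placed in the genome. Some of them, including the ones used, may lie at copies of the gene elsewhere. Differences were taken with numpy 2.4.6 and pandas 2.3.3 under Python 3.11.15, and the loess trend (span 0.3) with statsmodels 0.14.6. Counting and trend removal were tested on simulated data with 200 genes shifted by far more than the simulated noise. That checks the code only and does not cover differences as small as those of the proteasome genes. With 1 array per group there is no p-value, and genes are counted past 0.32 log2 units and past 1.5-fold. All 45 symbols were found in the RefSeq gene table. Every member was described. Of the other lists, up to 3 measurable genes of largest difference and the regulators listed were named. Some further genes were named for their role, or to show members that went the other way. The members and lists were chosen with earlier results of these data known. Alternatives were other probe set summaries, scalings, floors and a fold limit.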

Additional observations from a re-analysis of the deposited data

How the results depend on the processing

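The medians of the core, of the regulatory particle and of all measurable proteasome genes moved by less than 0.1 under each of the 6 alternatives for probe sets, scaling and floor. The median of the 5 immunoproteasome genes was -0.0055 with the loess trend removed, against 0.049 as reported. The count of genes past 0.32, 2 as reported, was 1 (Psmb8) with median-centred values and 1 (Psmb8) with the loess trend removed, and 0 at a limit of 1.5-fold. It was 3 with the lowest-mean probe set, which adds Psmb3, and 3 with no floor, which adds Psma8. The count past 1.5-fold was 0, but 1 with no floor (Psma8). No single gene moved by more than the robust SD of the difference over measurable genes (0.28). That SD is a spread across genes that holds the difference between the pools, so it does not measure replicate noise. With the loess trend removed 7 of 42 measurable genes changed sign (Psma5, Psma6, Psmc2, Psmd6, Psmd13, Psme1 and Psme2), with median-centred values 3, and with the lowest-mean probe set 1. Leaving out a replicate was not possible with 1 array per genotype. No paired analysis was possible because each genotype has 1 pooled array. Signal near the floor limits Psma8, Psmb11 and Psmc3ip.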
